A study of Danio rerio with 15 samples.

Results

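The genes described here are those of neuronal differentiation and of the synapse, measured in zebrafish larvae after their parents had been fed arsenic. A list of 49 zebrafish gene names was matched to the count table, by the name as written or, where that name was missing, by its capitals without the copy letter. One name, camk2b1, was matched as CAMK2B, in capitals without its copy number, which adds 2 genes. The matching gave 54 of the 32520 genes of the table, under 43 symbols, and 1 name (vamp1) matched no gene. By role, 18 genes belong to neuronal differentiation, 21 to the synaptic vesicle and its release site, and 15 to the synapse around it (adhesion, scaffold, glutamate receptors and their kinase). Parents were wild-type adults that ate blackworms (Lumbriculus variegatus) for 60 days, at 3.5% of body weight. The worms of the Control, Low and High groups had lived for 14 days in sodium arsenite at 0, 2.5 and 5.0 mg/L. Their dry weight held under 0.05 µg arsenic per g in Control and 72.47 µg/g in High, and is given as 32.4, 33.42 or 32.42 µg/g for Low in different parts of the labels. The offspring of all 3 groups stayed in arsenic-free medium, were wild type, and were taken whole at 5 days post fertilization, with 5 libraries per group. Nothing in the labels ties each library to its own clutch, so the p-values cover the spread among these samples only, and that spread may be technical.

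Neurons that leave the cell cycle switch on RNA-binding proteins of the Elavl family and transcription factors of the NeuroD family, and then build axons from tubulin, stathmins, tau and neurofilaments. At a mature synapse, SNARE proteins bring a vesicle to the membrane, synaptotagmins sense the calcium that triggers its fusion, and glutamate receptors held by scaffold proteins receive the transmitter. In a larva of this age the brain, spinal cord and retina already hold working circuits. The roles given below are those known from mammals or from vertebrates in general. In libraries of whole larvae, fewer cells of a type and less RNA per cell cannot be told apart. Of the 43 symbols, 11 stand for more than 1 gene identifier, all of which were kept, so genes beyond the copy written in the list can be among them. Which identifier is which copy is not known from the files, and identifiers are therefore printed. How the counting shared reads between similar copies is not given in the sources used here, so values of single copies are uncertain.

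Total counts ran from 21.2 to 59.9 M per library. The 54 genes took 0.563 to 0.839% of the counts in Control, 0.588 to 0.871% in Low and 0.568 to 0.713% in High. Some libraries stood apart from the others of their group. Markers of the digestive organs had a mean log2 CPM (CPM being counts scaled to a common library total, on the log2 scale) above 5 in Control 2, Control 4, Low 5, High 2, High 4 and High 5, with 7.62, 5.20, 7.11, 6.84, 7.67 and 7.69. The other 9 libraries lay between -1.16 and 4.37. Skeletal muscle markers had a mean of 10.02 in Low 5 and of 7.85 to 8.41 in Low 1 to 4. It was 8.695 to 9.418 in Control and 8.79 to 9.223 in High, so Low 1 to 4 lay below both groups. Low 5 is therefore given by name in what follows, and the counts over the gene set are also given without it. That choice was made from the values of these data, and the other libraries above 5 in digestive markers were kept. Low 5 was also the lowest Low library in 40 of 51 genes of the set. Leaving it out alone therefore raises the Low levels of those genes, and the counts without it are no separate support.

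None of the 51 genes with enough counts to be tested passed an adjusted p of 0.05 in edgeR's quasi-likelihood test, in any of the 3 comparisons between groups. Over all 22012 genes tested, 0% passed in Low against Control. In High against Control 0.522% did, and in High against Low 1.71%. The levels nevertheless lay mostly on 1 side: log2 fold changes were above 0 in 45 of 51 genes for Low against Control, beside 50.4% of all genes. For High against Control, 19 of 51 were above 0, beside 47.9% of all genes. For High against Low, 5 of 51 were above 0, beside 48.3% of all genes. At an unadjusted p under 0.05, 12 of 51 were higher in Low than in Control (23.5%, beside 4.59% of all genes) and 0 were lower. By the same measure, 2 of 51 were lower in High than in Control (3.9%, beside 8.63% of all genes). In High against Low, 20 of 51 were lower (39.2%, beside 12.5% of all genes) and 0 were higher. Without Low 5, 46 of 51 were above 0 in Low against Control (beside 48.1% of all genes) and 3 of 51 in High against Low (beside 48.9%). At an unadjusted p under 0.05, 25 of 51 were then higher and 1 lower in Low than in Control (9.06% of all genes were higher), and 33 of 51 were lower and 0 higher in High than in Low (16.6% of all genes were lower). These comparisons share their libraries, so the High against Low values follow in part from the Low libraries that also enter Low against Control.

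The medians of the vesicle and synapse genes lay farther from 0 than those of the differentiation genes in Low against Control and in High against Low. Differentiation genes had a median log2 fold change of 0.11 when Low was compared with Control, 0.00 when High was compared with Control, and -0.13 when High was compared with Low. For vesicle genes these medians were 0.24, -0.07 and -0.28. For the remaining synapse genes they were 0.32, -0.06 and -0.40, and the medians of all genes were 0.00, -0.02 and -0.01. All 18 tested vesicle genes had a log2 fold change above 0 in Low against Control. This compared with 14 of 18 differentiation genes, 13 of 15 synapse genes and 50.4% of all genes. At an unadjusted p under 0.05, 1 of 18 differentiation genes, 10 of 18 vesicle genes and 9 of 15 synapse genes were lower in High than in Low. These shares were 5.6%, 55.6% and 60.0%, beside 12.5% of all genes, so that of the differentiation genes was below the share of all genes. Without Low 5 these counts were 5, 17 and 11 (27.8%, 94.4% and 73.3%, beside 16.6% of all genes). Low 5 was the lowest Low library in all 18 vesicle genes, so this rise follows from leaving it out and is no separate support. No test of the difference between these classes was made, since the genes within a class share the same libraries.

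By library, the mean log2 CPM of the vesicle genes was 6.38, 6.49, 6.64, 6.46 and 6.50 in Control 1 to 5. It was 6.83, 6.92, 6.77, 6.84 and 6.35 in Low 1 to 5 and, for High 1 to 5, 6.56, 6.35, 6.49, 6.28 and 6.44. All 10 Control and High libraries lay below Low 1 to 4, and Low 5 lay below every Control library. The group means were 6.49 ± 0.10 for Control, 6.74 ± 0.23 for Low and 6.42 ± 0.11 for High (SD, n = 5). The synapse genes gave 4.07 ± 0.17, 4.35 ± 0.27 and 3.93 ± 0.18 (SD, n = 5) in the same order, with Low 1 to 4 at 4.32 to 4.57 and Low 5 at 3.89. Their highest Control and High libraries were at 4.23 and 4.15, so Low 1 to 4 again lay above all of them. Differentiation genes had means of 6.42 ± 0.22, 6.51 ± 0.10 and 6.39 ± 0.14 (SD, n = 5), with groups that overlapped and with Control 2 lowest of all at 6.07. The vesicle mean minus the differentiation mean had group means of 0.07 ± 0.21 (Control), 0.24 ± 0.14 (Low) and 0.04 ± 0.10 (High; SD, n = 5), and these groups overlapped as well.

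**Figure D1:**
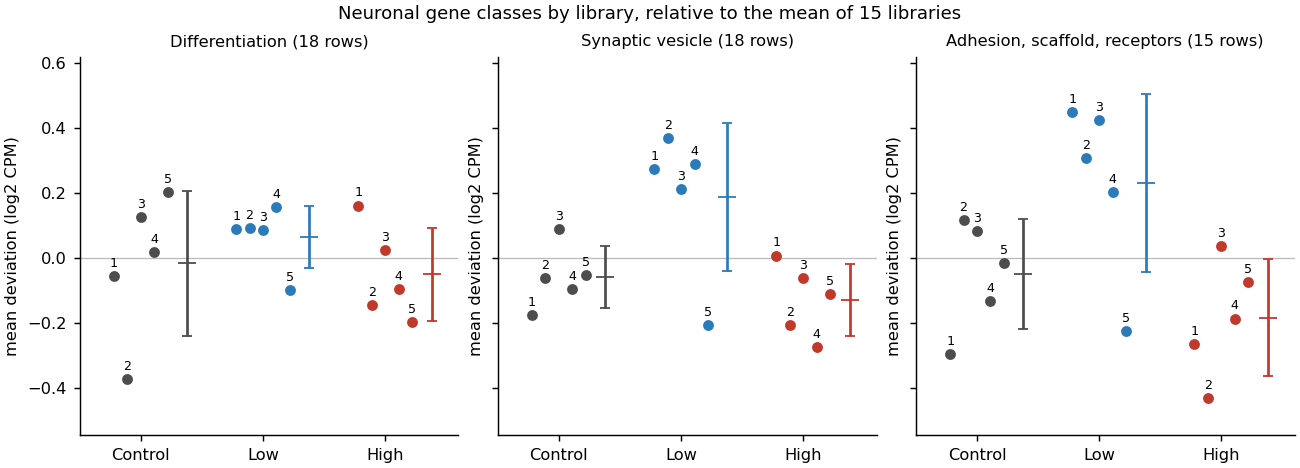
Mean log2 CPM of the tested differentiation, vesicle and synapse genes in each library, drawn as the deviation from the mean of all 15 libraries, with the mean and SD of each group (n = 5). Low 1 to 4 sit above every Control and High library for vesicle and synapse genes, Low 5 does not, and the differentiation genes of the 3 groups overlap.

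Gene by gene, Low 5 was the lowest of the Low libraries in 18 of 18 vesicle genes, 11 of 18 differentiation genes and 11 of 15 synapse genes (40 of 51, beside 32.7% of all genes). It was the highest of them in 4 of 51 genes (7.84%, beside 33.1% of all genes): NEUROD4, tubb5, STMN1 (ENSDARG00000004169) and NEFL. Low 1 to 4 lay above all 5 High libraries in 0 differentiation, 10 vesicle and 6 synapse genes (16 of 51, or 31.4%, beside 8.82% of all genes). They lay above all 5 Control libraries in 3 differentiation, 8 vesicle and 5 synapse genes (also 16 of 51, beside 5.02%). In 8 genes they lay above all 11 other libraries (15.7%, beside 2.59%): SNAP25 (ENSDARG00000020609), SYT1, sncb, DLG4 (ENSDARG00000039385), GRIA2 (ENSDARG00000052765), GRIN1 (ENSDARG00000027828), CAMK2A and CAMK2B (ENSDARG00000100089). With all 5 Low libraries counted, 2 of 51 genes had every High library below every Low library (beside 2.43% of all genes), SV2A and CAMK2B (ENSDARG00000011065). No gene separated Low from Control or High from Control in this way, where 1.31% and 4.41% of all genes did.

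**Figure D2:**
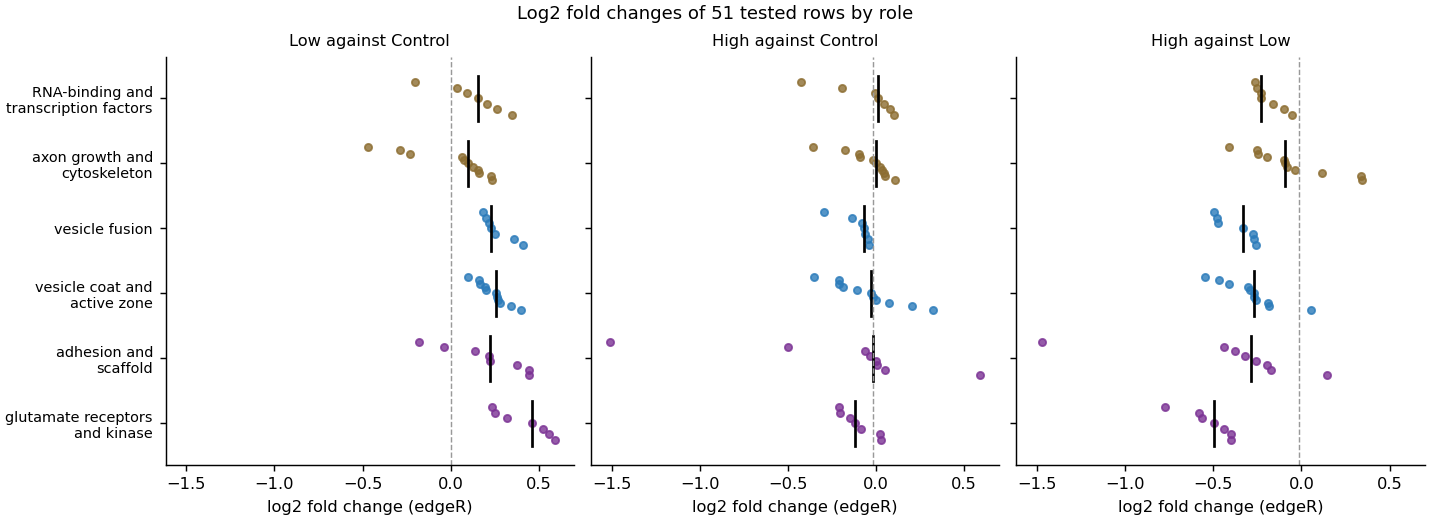
Fitted log2 fold changes of the 51 tested genes, grouped by role, for Low against Control, High against Control and High against Low; each point is a gene, short bars are medians of a role, and the dashed line is the median of all genes tested. Receptor and kinase genes lie highest in Low against Control (median 0.46) and lowest in High against Low (median -0.50), while axon genes lie near 0 in both (0.10 and -0.09).

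The RNA-binding proteins and transcription factors of differentiation (7 genes) had median log2 fold changes of 0.16, 0.01 and -0.23 in Low against Control, High against Control and High against Low. ELAVL3 and ELAVL4, which bind mRNA in young and mature neurons, had log2 fold changes of 0.09 and 0.21 for Low against Control, and of -0.01 and 0.04 for High against Control. NEUROD1, a transcription factor of differentiating neurons that also acts in endocrine pancreas, had the highest mean CPM of these genes, a value that depends on transcript length too. It was at 270.1, 386, 328, 302 and 309 CPM in Control 1 to 5, at 388, 352, 319, 272 and 304 CPM in Low 1 to 5, and at 318, 232, 264, 269 and 311 CPM in High 1 to 5. Control 2 and Low 1 were highest, High 2 was lowest, and the 3 groups overlapped. Its log2 fold change was -0.23 (SE 0.12, adjusted p = 0.283 in edgeR) for High against Low. The 10 markers of the endocrine pancreas (8 tested, 1 at 0) summed to 168.6 to 298.9 CPM in Control, highest in Control 2. The sums were 194.1 to 249.2 CPM in Low and 181.2 to 311.2 CPM in High. Sums mostly reflect the most abundant markers. The mean log2 CPM of the 8 tested markers was 2.77 ± 1.09, 2.32 ± 0.47 and 3.31 ± 1.04 in Control, Low and High (SD, n = 5). Their median log2 fold changes were -0.653, 0.152 and 0.785 in Low against Control, High against Control and High against Low, and 0 of the 8 passed. The part of these markers' cells in the NEUROD1 level was not tested.

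NEUROD4, which drives neuronal fate in the retina and hindbrain, was chosen with NEUROD6 for the smallest unadjusted p among these genes. NEUROD4 was at 7.90, 12.3, 6.12, 10.2 and 8.73 CPM in Control 1 to 5, at 8.43, 8.05, 6.22, 7.59 and 9.13 CPM in Low 1 to 5, and at 6.18, 4.72, 7.35, 7.10 and 8.31 CPM in High 1 to 5. Control 2 was the highest library, High 2 the lowest, and all groups overlapped. The means were 9.06 ± 2.36, 7.88 ± 1.09 and 6.73 ± 1.36 CPM (SD, n = 5) in Control, Low and High, with a log2 fold change of -0.43 (SE 0.19, adjusted p = 0.279 in edgeR) for High against Control. NEUROD6 (ENSDARG00000040008), a factor of postmitotic neurons in the forebrain, was at 23.4, 27.1, 23.3, 22.0 and 24.7 CPM in Control 1 to 5, at 29.1, 28.3, 36.0, 39.3 and 20.3 CPM in Low 1 to 5, and at 33.0, 24.5, 22.0, 25.2 and 22.5 CPM in High 1 to 5. All Control libraries lay below Low 1 to 4, Low 5 was the lowest of all 15, and High 1 lay among the Low libraries. Low against Control gave 0.35 (SE 0.16, adjusted p = 0.502 in edgeR). The other NEUROD6 copy (ENSDARG00000020794) and NEUROD2 had log2 fold changes of 0.16 and 0.26, respectively, for Low against Control.

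Genes of axon growth and the cytoskeleton (11 genes) had medians of 0.10, -0.00 and -0.09 in the 3 comparisons. Here the copies did not all lie on the same side. STMN1 (ENSDARG00000033655), a stathmin that takes microtubules apart, was at 535, 416, 478, 513 and 510.0 CPM in Control 1 to 5, at 564, 553, 649, 719 and 399.9 CPM in Low 1 to 5, and at 563, 439, 473, 329 and 371 CPM in High 1 to 5. Low 1 to 4 lay above all Control libraries, while Low 5 lay below them and High 1 among the Low libraries. High against Low gave -0.41 (SE 0.16, adjusted p = 0.163 in edgeR). The second copy, STMN1 (ENSDARG00000004169), was at 130.4, 44.9, 85.6, 112 and 116 CPM in Control 1 to 5, at 58.3, 50.6, 72.7, 65.9 and 105 CPM in Low 1 to 5, and at 75.1, 86.3, 73.9, 76.2 and 70.8 CPM in High 1 to 5. In this copy Control 2 was lowest, Control 1 was highest, and Low 5 was the highest Low library. Its log2 fold change was -0.47 (SE 0.24, adjusted p = 0.559 in edgeR) for Low against Control and 0.12 for High against Low.

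tubb5, a beta-tubulin subunit of microtubules, had the highest mean CPM of the axon genes and was at 528, 281, 687, 617 and 793 CPM in Control 1 to 5, at 446, 548, 446, 475 and 557 CPM in Low 1 to 5, and at 718, 597, 617, 716 and 486 CPM in High 1 to 5. Control spanned the whole range, from Control 2 as the lowest to Control 5 as the highest of the 15 libraries, and Low and High overlapped. High against Low gave 0.34 (SE 0.21, adjusted p = 0.342 in edgeR), with the sign opposite to most of the set. gap43, a growth cone protein, had log2 fold changes of 0.06, 0.02 and -0.04 in the 3 comparisons. map2, which binds dendritic microtubules, had 0.23 and mapta, a tau gene of axons, 0.16 for Low against Control. The STMN2 copies, stathmins of growth cones, had 0.16 and 0.07.

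The neurofilament chains, which fill large myelinated axons, are given by library, a choice made after their values had been seen. nefma, the medium chain, was at 106, 57.1, 133, 102 and 136 CPM in Control 1 to 5, at 122, 127, 116, 116 and 90.5 CPM in Low 1 to 5, and at 129, 111, 146, 77.3 and 70.4 CPM in High 1 to 5. Control 2, High 4 and High 5 were the lowest libraries. nefla, a light chain, was at 40.4, 17.6, 48.0, 37.5 and 53.2 CPM in Control 1 to 5, at 48.1, 42.1, 47.2, 43.4 and 33.8 CPM in Low 1 to 5, and at 54.3, 39.8, 64.1, 23.9 and 21.01 CPM in High 1 to 5, and the same 3 libraries were lowest. NEFL, a further light chain gene, was at 21.4, 9.75, 28.8, 26.6 and 30.7 CPM in Control 1 to 5, at 20.0, 18.7, 18.6, 17.96 and 21.04 CPM in Low 1 to 5, and at 29.9, 24.4, 29.9, 20.5 and 17.0 CPM in High 1 to 5. Here Control 2 was lowest and High 5 next, but High 4 lay above Low 1 to 4. The mean log2 CPM of 8 oligodendrocyte and myelin markers, all detected, was 5.41 in Control 2, 4.72 in High 4, 5.30 in High 5 and 5.35 in Low 5, and 5.79 to 6.29 in the other 11 libraries. Summed over the markers, this was 1079 to 2549 CPM in Control, 1042 to 2925 in Low and 430 to 2718 in High. The mean within-group coefficient of variation was 31.3% for nefla, the highest of the axon genes, whose median was 17.1%. Log2 fold changes of nefma, nefla and NEFL for High against Low were -0.10, -0.08 and 0.34, and the part of the cells of these 8 markers in these levels was not tested.

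**Figure D3:**
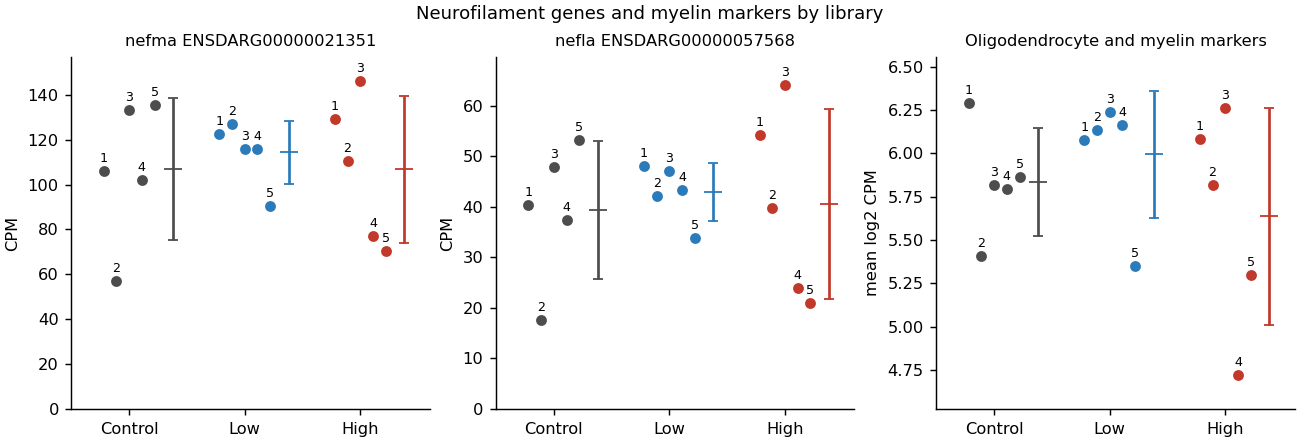
Levels of nefma and nefla in CPM and the mean log2 CPM of 8 oligodendrocyte and myelin markers in each of the 15 libraries, with numbered points for libraries and the mean and SD of each group (n = 5). Control 2, High 4 and High 5 are the lowest libraries for both neurofilament chains, at 17.6, 23.9 and 21.01 CPM for nefla, and also lie low in the 8 markers.

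The fusion machinery of the vesicle (9 genes, 7 tested) had medians of 0.23, -0.07 and -0.33 in the 3 comparisons. At an unadjusted p under 0.05, 5 of 7 were lower in High than in Low, beside 12.5% of all genes. Without Low 5, which was the lowest Low library in all 7, this was 7 of 7, beside 16.6% of all genes. SNAP25 (ENSDARG00000020609), a SNARE protein of the presynaptic membrane, was at 531, 465, 621, 516 and 558 CPM in Control 1 to 5, at 790.0, 693, 766, 839 and 484 CPM in Low 1 to 5, and at 649, 493, 583, 394 and 454 CPM in High 1 to 5. The 11 other libraries were all lower than Low 1 to 4, and Low 5 lay below the median of Control. Means were 538 ± 57.3, 714 ± 139 and 515 ± 102 CPM (SD, n = 5) in Control, Low and High. The log2 fold change was 0.41 (SE 0.16, adjusted p = 0.457 in edgeR) for Low against Control and -0.47 (SE 0.16, adjusted p = 0.108 in edgeR) for High against Low. The SNAP25 copy ENSDARG00000058117 had smaller values, 0.23 and -0.28. vamp2, the SNARE on the vesicle itself, had 0.22 and -0.26 in those comparisons.

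SYT2 (ENSDARG00000025206), a fast calcium sensor of release, was at 19.9, 19.4, 29.5, 24.5 and 24.8 CPM in Control 1 to 5, at 25.0, 34.3, 25.9, 28.9 and 20.1 CPM in Low 1 to 5, and at 16.5, 20.7, 23.2, 17.0 and 18.8 CPM in High 1 to 5. All High libraries lay below Low 1 to 4, Low 5 lay among them, and Control overlapped both groups. High against Low gave -0.48 (SE 0.15, adjusted p = 0.0960 in edgeR). SYT1, the calcium sensor of most forebrain synapses, had log2 fold changes of 0.25, -0.08 and -0.33. CPLX2, a complexin that binds the assembled SNARE complex, had 0.20, -0.07 and -0.27. Not tested were STX1A with 82 counts and syt1b with 14 counts over all libraries.

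The vesicle coat, membrane and active zone (12 genes, 11 tested) had medians of 0.26, -0.03 and -0.27. At an unadjusted p under 0.05, 5 of 11 were lower in High than in Low, beside 12.5% of all genes. Without Low 5, which was the lowest Low library in all 11, this was 10 of 11, beside 16.6% of all genes. BSN (ENSDARG00000079161), the bassoon scaffold of the active zone, was at 88.0, 115, 125, 103 and 108 CPM in Control 1 to 5, at 134, 155, 114, 117 and 99.2 CPM in Low 1 to 5, and at 89.2, 93.7, 103, 82.3 and 96.7 CPM in High 1 to 5. Low 1 to 4 lay above all High libraries, while Low 5 lay inside the High range and Control overlapped both. High against Low gave -0.41 (SE 0.12, adjusted p = 0.0819 in edgeR). pclob, the related scaffold piccolo, was at 47.3, 70.7, 86.1, 60.5 and 54.6 CPM in Control 1 to 5, at 85.2, 87.0, 64.7, 75.6 and 53.1 CPM in Low 1 to 5, and at 40.5, 54.6, 53.4, 47.3 and 54.7 CPM in High 1 to 5. All High libraries and Low 5 were below Low 1 to 4, and Control spanned both. Its High against Low value was -0.55 (SE 0.17, adjusted p = 0.0876 in edgeR), and that of the other BSN copy (ENSDARG00000111110) was -0.47.

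SNCG (ENSDARG00000109715), a synuclein found in axons and terminals, had the highest mean CPM of these genes and was at 292, 214, 293, 258 and 305 CPM in Control 1 to 5, at 316, 352, 378, 363 and 224 CPM in Low 1 to 5, and at 319, 254, 289, 218 and 257 CPM in High 1 to 5. Control lay below Low 1 to 4 in every library but not below Low 5, and High 1 lay just above Low 1. Low against Control gave 0.26 and High against Low -0.29 (SE 0.15, adjusted p = 0.262 in edgeR). The other SNCG copy (ENSDARG00000034423) had log2 fold changes of 0.27, 0.32 and 0.06 in the 3 comparisons. It was the only tested vesicle gene above 0 in High against Low. SV2A, a glycoprotein of the vesicle membrane, was one of the pair in which High and Low did not overlap, with 230.3 to 265.6 CPM in High and 266.1 to 350.9 CPM in Low. The gap between the groups was small, with High 1 just below Low 5, and Control reached from 241.2 to 351.7 CPM. High against Low gave -0.31 (SE 0.11, adjusted p = 0.126 in edgeR), and 2.43% of all genes also had every High library below every Low library. sypa and sypb, the synaptophysins of the vesicle membrane, had log2 fold changes of -0.18 and -0.27 for High against Low. sypa varied least of the set, by 1.39-fold between its highest and lowest library. SYN2, which tethers vesicles to the reserve pool, had 0.26 and -0.26, and syn1 was not tested, with 3 counts over all libraries.

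Adhesion and scaffold genes (8 genes) had medians of 0.22, -0.02 and -0.29 and the widest spread within groups, with a median coefficient of variation of 27.4%. DLG4 (ENSDARG00000039385), the postsynaptic scaffold PSD-95, was at 19.5, 24.5, 25.7, 20.2 and 24.2 CPM in Control 1 to 5, at 29.3, 32.2, 32.8, 32.9 and 21.3 CPM in Low 1 to 5, and at 21.8, 19.9, 24.7, 25.2 and 22.8 CPM in High 1 to 5. Of the 15 libraries, Low 1 to 4 were the highest, and Low 5 lay within Control. Its log2 fold change was 0.38 (SE 0.12, adjusted p = 0.434 in edgeR) for Low against Control and -0.38 (SE 0.12, adjusted p = 0.106 in edgeR) for High against Low. The other DLG4 copy (ENSDARG00000041926) had 0.44 and -0.44 in these comparisons. A further gene, dlg4b, with a mean of 1.02 CPM, had -0.18 and -0.32, and -0.50 for High against Control. nrxn1a, a presynaptic adhesion protein that binds neuroligins, was at 51.2, 64.6, 78.3, 58.3 and 62.2 CPM in Control 1 to 5, at 82.9, 75.3, 67.6, 82.1 and 59.3 CPM in Low 1 to 5, and at 71.5, 51.8, 62.2, 57.4 and 64.2 CPM in High 1 to 5. Low 1 and Low 4 were highest, High 2 and Control 1 lowest, and all groups overlapped. High against Low gave -0.26 (SE 0.12, adjusted p = 0.239 in edgeR).

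nrxn1b, the second copy of the neurexin gene, was at 3.46, 4.65, 0.924, 1.95 and 2.00 CPM in Control 1 to 5, at 3.99, 1.12, 4.80, 0.843 and 1.86 CPM in Low 1 to 5, and at 1.40, 0.655, 0.821, 0.836 and 0.778 CPM in High 1 to 5. Its levels were low, and every High library except High 1 lay below all Control and Low libraries. Control ran from 0.924 to 4.65 CPM and Low from 0.843 to 4.80 CPM. The log2 fold change was -1.51 (SE 0.50, adjusted p = 0.157 in edgeR) for High against Control and -1.48 (SE 0.50, adjusted p = 0.115 in edgeR) for High against Low, the largest in size of the 51 genes. shank3b, a postsynaptic scaffold copy, had 0.45 and 0.59 against Control, where SHANK3 had 0.14 and -0.06. NLGN1, a postsynaptic partner of neurexins, had 0.22 and 0.05.

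Glutamate receptors and their kinase (7 genes) lay farthest from Control in Low, with medians of 0.46, -0.12 and -0.50 in the 3 comparisons. At an unadjusted p under 0.05, 6 of 7 were higher in Low than in Control (beside 4.59% of all genes). In High against Low 7 of 7 were lower (beside 12.5%). Both counts were the same without Low 5, where the shares of all genes were 9.06% and 16.6%. CAMK2B (ENSDARG00000100089), a subunit of the calcium-dependent kinase of the postsynapse, was at 8.46, 9.98, 12.4, 7.99 and 9.58 CPM in Control 1 to 5, at 15.3, 14.7, 16.2, 17.1 and 8.04 CPM in Low 1 to 5, and at 9.13, 5.72, 11.4, 6.92 and 8.60 CPM in High 1 to 5. Low 1 to 4 lay above all 11 other libraries and Low 5 near the bottom of Control. Means were 9.68 ± 1.71, 14.3 ± 3.6 and 8.36 ± 2.18 CPM (SD, n = 5) in Control, Low and High. It had the smallest adjusted p of the set, with -0.77 (SE 0.21, adjusted p = 0.0704 in edgeR) for High against Low and 0.56 (SE 0.21, adjusted p = 0.453 in edgeR) for Low against Control.

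The second CAMK2B copy (ENSDARG00000011065) was at 152, 192, 213, 168 and 179 CPM in Control 1 to 5, at 245, 219.9, 202, 231 and 179 CPM in Low 1 to 5, and at 174, 141, 179, 152 and 171 CPM in High 1 to 5. Every High library was below every Low library (as in 2.43% of all genes), by a small gap between High 3 (178.9 CPM) and Low 5 (179.2 CPM), and Control overlapped both. High against Low gave -0.40 (SE 0.11, adjusted p = 0.0731 in edgeR). GRIN1 (ENSDARG00000027828), the subunit that every NMDA-type glutamate receptor needs, was at 289, 355, 339.8, 285 and 321 CPM in Control 1 to 5, at 402, 446, 452, 436 and 245 CPM in Low 1 to 5, and at 319.9, 274, 341, 261 and 305 CPM in High 1 to 5. The highest libraries were Low 1 to 4, and Low 5 was the lowest of the 15. The means were 318 ± 31.01, 396 ± 86.7 and 300.0 ± 32.6 CPM (SD, n = 5), with log2 fold changes of 0.32 (SE 0.15, adjusted p = 0.513 in edgeR) for Low against Control and -0.40 (SE 0.15, adjusted p = 0.137 in edgeR) for High against Low.

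GRIA2 (ENSDARG00000052765), an AMPA-type receptor subunit that limits calcium entry, and CAMK2A, the partner subunit of the kinase, are given by library, a choice made after their values had been seen, as the 2 largest of 5 changes that passed in Low against Control without Low 5. GRIA2 was at 76.7, 96.2, 98.5, 71.8 and 89.3 CPM in Control 1 to 5, at 127, 135, 134, 154 and 72.2 CPM in Low 1 to 5, and at 91.7, 75.1, 106, 81.1 and 85.4 CPM in High 1 to 5. CAMK2A was at 44.7, 53.3, 43.9, 33.9 and 41.3 CPM in Control 1 to 5, at 62.5, 61.9, 65.1, 73.9 and 35.5 CPM in Low 1 to 5, and at 37.6, 36.7, 53.6, 35.8 and 36.3 CPM in High 1 to 5. In both genes Low 1 to 4 were the 4 highest libraries, and Low 5 lay below every High library and above only Control 4. With all libraries, Low against Control gave 0.52 (SE 0.17, adjusted p = 0.434 in edgeR) for GRIA2 and 0.46 (SE 0.18, adjusted p = 0.457 in edgeR) for CAMK2A. The other GRIA2 copy (ENSDARG00000070173) had 0.59 (SE 0.19, adjusted p = 0.434 in edgeR), and here Low 5, at 7.82 CPM, was not low within its group.

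**Figure D4:**
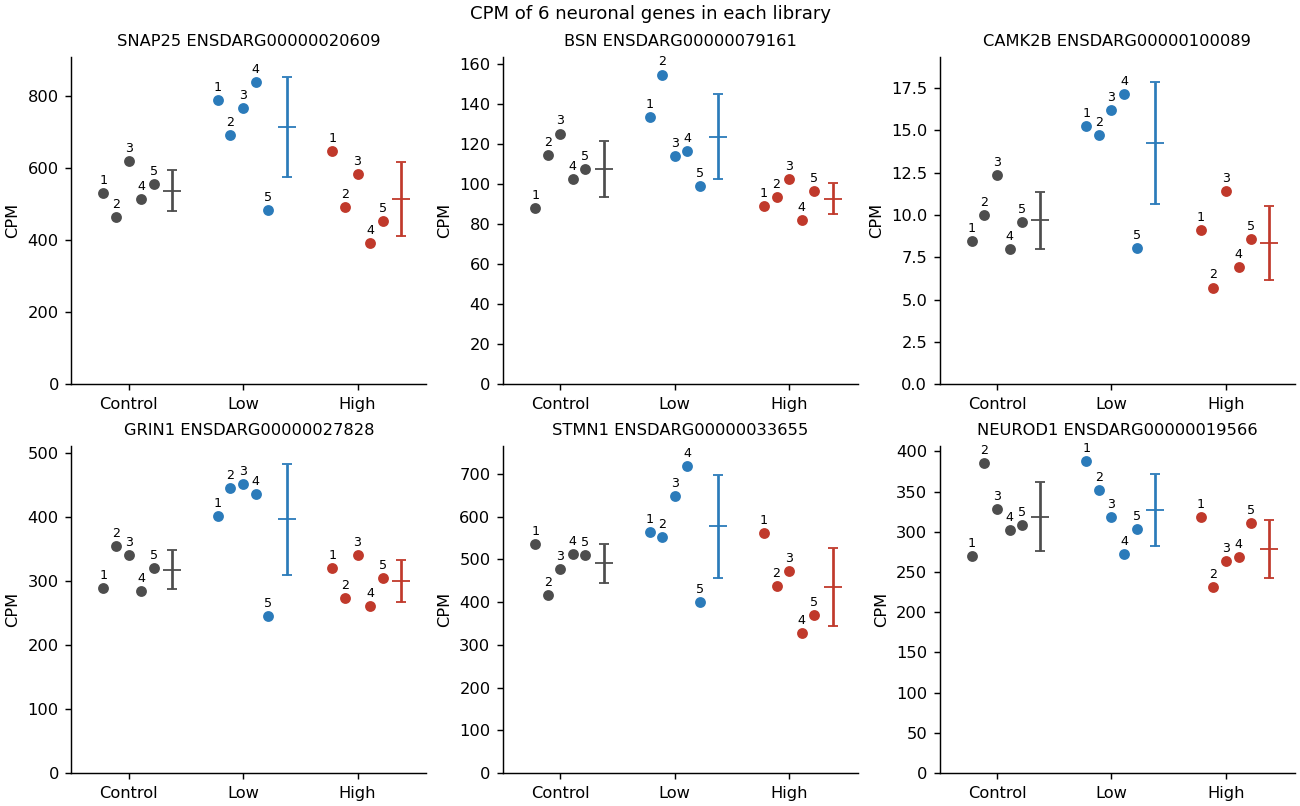
CPM by library for SNAP25, BSN, CAMK2B, GRIN1, STMN1 and NEUROD1 (the copies described in the text), with points for libraries and the mean and SD of each group (n = 5). In SNAP25, CAMK2B and GRIN1, Low 1 to 4 lie above all other libraries and Low 5 lies far below them, for example at 245.0 CPM for GRIN1, the lowest of the 15, beside 401.8 to 452.1 CPM in Low 1 to 4.

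Whether these differences passed the test depended on single libraries and on the tool. Low 5 was the lowest Low library in 40 of 51 genes, so calls made without it are no separate support. Without Low 5, 19 of 51 genes fell in High against Low (37.3%, beside 8.19% of all genes), 1 of them a differentiation gene, 12 vesicle genes and 6 synapse genes. They were STMN1 (ENSDARG00000033655), both SYT2 copies, SYT1, vamp2, SNAP25 (ENSDARG00000020609), both BSN copies, pclob, SYN2, SV2A, sncb, SNCG (ENSDARG00000109715), DLG4 (ENSDARG00000039385), GRIA2 (ENSDARG00000052765), GRIN1 (ENSDARG00000027828), CAMK2A and both CAMK2B copies. Their log2 fold changes then ran from -0.92 for CAMK2B (ENSDARG00000100089) to -0.34 for vamp2, with edgeR adjusted p from 0.00643 to 0.0459. In Low against Control, 5 of 51 then rose (9.8%, beside 0.865% of all genes): GRIA2 (ENSDARG00000052765) by 0.67, CAMK2A by 0.60, DLG4 (ENSDARG00000039385) by 0.48, GRIN1 (ENSDARG00000027828) by 0.45 and sncb by 0.44 on the log2 scale. In High against Control, 0 of 51 passed without Low 5, where 1.08% of all genes did. The medians of the differentiation, vesicle and synapse genes without Low 5 were 0.17, 0.34 and 0.45 for Low against Control, and -0.17, -0.38 and -0.53 for High against Low.

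Without High 3, 2 genes fell in High against Low (beside 1.55% of all genes), CAMK2A and CAMK2B (ENSDARG00000100089). DESeq2 on all libraries called 6 of 51 lower in High than in Low (11.8%, beside 4.08% of all genes): both CAMK2B copies, CAMK2A, nrxn1b, pclob and BSN (ENSDARG00000079161). limma voom with sample weights, which gives less weight to libraries that vary more, called 24 of 51 lower (47.1%, beside 11% of all genes), of which 19 were the genes called without Low 5. The weights were estimated from these same libraries, so that overlap is no separate support. In Low against Control, voom called 9 of 51 higher (17.6%, beside 2.94% of all genes), and DESeq2 called 0 (beside 0.3% of all genes). In High against Control both tools called 0 of 51, beside 4.36% of all genes for DESeq2 and 1.25% for voom.

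Markers of other organs also differed between libraries. The 15 digestive markers, none of them at 0, summed to 39.8 to 11494 CPM in Control, 28.2 to 8356 CPM in Low and 38.4 to 13262 CPM in High. Their log2 fold changes were all above 0 in High against Low and all below 0 in Low against Control, and none passed the test in either. The 10 skeletal muscle markers, none at 0, summed to 7839 to 14102 CPM in Control, 6304 to 20409 CPM in Low and 9187 to 11493 CPM in High, and Low 5 was the highest of the 15. In mean log2 CPM of these muscle markers, Low 1 to 4 lay below every Control and High library. With the digestive marker mean as a covariate, 0 of 51 genes passed in each comparison. Of all genes, 0% then passed in Low against Control, 0.386% in High against Control and 0.263% in High against Low. With this covariate the medians of differentiation, vesicle and synapse genes were 0.07, 0.16 and 0.21 for Low against Control and -0.02, -0.21 and -0.26 for High against Low. Without the 6 libraries above 5 in digestive markers, a choice made after seeing the data, 3 of 51 passed in Low against Control (5.9%, beside 2.25% of all genes). GRIA2 (ENSDARG00000052765) rose by 0.64 and CAMK2A by 0.60, and STMN1 (ENSDARG00000004169) fell by 0.84 on the log2 scale. In High against Low 0 of 51 then passed (beside 1.04% of all genes), with medians of -0.15, -0.29 and -0.47 for differentiation, vesicle and synapse genes. That fit kept Control 1, 3 and 5, Low 1 to 4 and only High 1 and High 3. With so few High libraries, the lack of a pass does not show that the difference was gone. With all 15 libraries, radial glia markers had median log2 fold changes of 0.001, 0.015 and -0.023 in Low against Control, High against Control and High against Low. Neural progenitor markers had -0.11, -0.05 and 0.17, oligodendrocyte and myelin markers 0.22, -0.15 and -0.33, and photoreceptor markers 0.02, -0.14 and -0.11. These medians hide opposite changes. Of 8 tested photoreceptor markers, 1 passed as higher and 1 as lower in High against Control (beside 0.522% of all genes). The same counts passed in High against Low (beside 1.71%), with log2 fold changes from -0.884 to 1.905. Of the 8 myelin markers, 1 was higher and 0 lower in High than in Low at an unadjusted p under 0.05 (9.38% of all genes were higher). The part of digestive organs, muscle and these other cells in the levels of the neuronal genes was not tested.

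**Figure D5:**
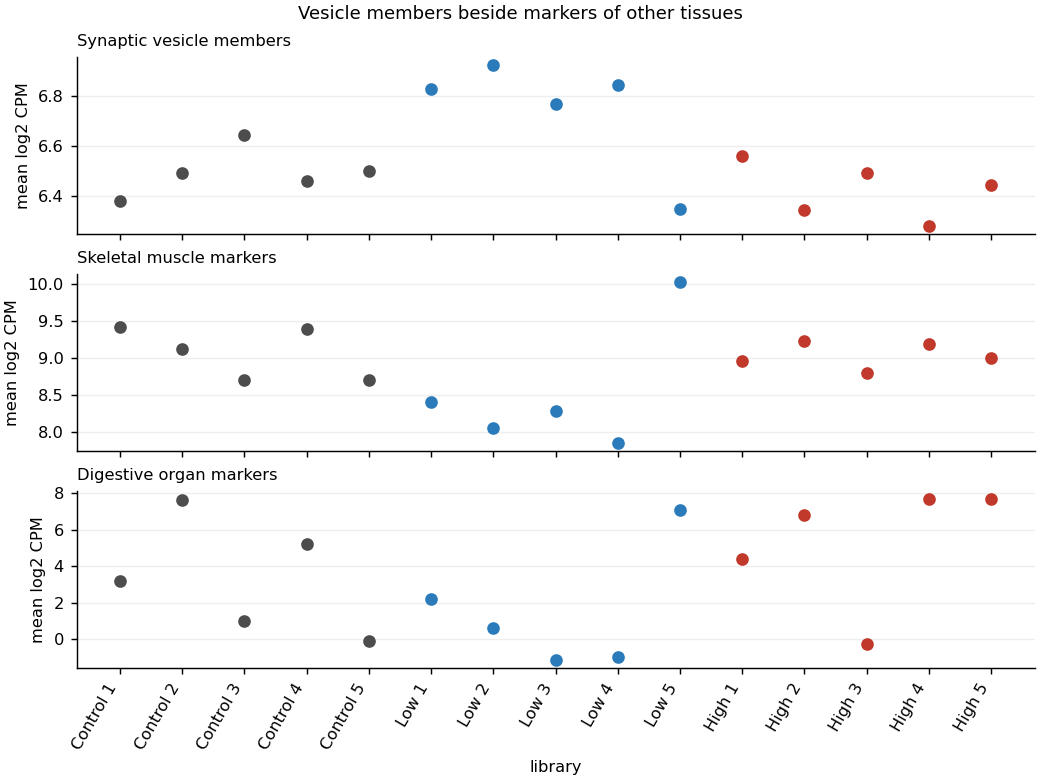
Mean log2 CPM of the vesicle genes, of 10 skeletal muscle markers and of 15 digestive organ markers in each library. Low 5 is the lowest Low library for vesicle genes (6.35), the highest of all for muscle (10.02), and has a digestive marker mean of 7.11, where Low 1 to 4 lie between -1.16 and 2.19. For muscle, Low 1 to 4 lie below every Control and High library.

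Further genes of the same pathways, 183 identifiers from lists of neuronal differentiation, the vesicle cycle, and adhesion and postsynaptic proteins, were read in the same way. Of the 172 tested, 146, 78 and 32 had a log2 fold change above 0 in Low against Control, High against Control and High against Low. Of all genes, 50.4%, 47.9% and 48.3% did. The medians of the 172 were 0.18, -0.02 and -0.21. At an unadjusted p under 0.05, 40 were higher and 0 lower in Low than in Control (4.59% of all genes were higher), and 0 were higher and 55 lower in High than in Low (12.5% of all genes were lower). In High against Control the counts were 2 higher and 4 lower (7.18% and 8.63% of all genes). Low 5 was the lowest Low library in 128 of the 172 (74.4%, beside 32.7% of all genes), so counts without it are no separate support here either. Without Low 5, 71 were higher and 2 lower in Low than in Control (9.06% of all genes were higher). In High against Low 2 were then higher and 83 lower (16.6% of all genes were lower). Log2 fold changes above 0 numbered 147 and 28 in these comparisons, beside 48.1% and 48.9% of all genes. Neuronal differentiation had the smallest medians again, 0.11 for Low against Control and -0.11 for High against Low, where the vesicle cycle had 0.18 and -0.22, and adhesion and postsynaptic genes 0.23 and -0.26.

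In these lists, edgeR called 0 of 172 in Low against Control, 0 in High against Control and 2 in High against Low (1.16%, beside 1.71% of all genes), a share below that of all genes. Without Low 5 it called 6 higher in Low against Control (3.49%, beside 0.865% of all genes) and 49 lower in High against Low (28.5%, beside 8.19%). The 2 genes called with all libraries are described here. MAP1A (ENSDARG00000059601), a microtubule-associated protein of dendrites, was at 159, 189, 228, 175 and 185 CPM in Control 1 to 5, at 257, 255, 208, 236 and 182 CPM in Low 1 to 5, and at 151, 148, 170.0, 165 and 163 CPM in High 1 to 5. All High libraries were below all Low libraries, with Control overlapping both. It fell by 0.52 on the log2 scale in High against Low (SE 0.11, adjusted p = 0.0375 in edgeR). DLGAP2 (ENSDARG00000059340), a scaffold that binds PSD-95, was at 3.84, 3.69, 3.83, 3.37 and 3.59 CPM in Control 1 to 5, at 4.19, 3.15, 4.56, 4.69 and 3.41 CPM in Low 1 to 5, and at 2.38, 2.31, 2.91, 2.51 and 2.79 CPM in High 1 to 5. All High libraries were below all Low and Control libraries. Of the 172 genes, 4 had every High library below every Low library, beside 2.43% of all genes. Every High library lay below every Control library in 4, beside 2.39% of all genes. It fell by 0.63 in High against Low (SE 0.14, adjusted p = 0.0375 in edgeR), and High against Control gave -0.51 (SE 0.14, adjusted p = 0.0976 in edgeR). Leaving out 1 library at a time ended each of these 2 calls for 10 of 15 libraries, with edgeR adjusted p then between 0.0507 and 0.117.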

How the data were processed

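RNA of whole larvae was measured in 15 libraries, 5 per group. The authors deposited raw counts, with no normalization per the file headers and values, as 1 table of Ensembl genes by library. The builds GRCz11 and mm10 (a mouse build) and the tools Trimmomatic, FastQC, MultiQC and DESeq2, with no versions, appear in the submitters' processing notes. The strandedness, aligner, counter and annotation were not given in the sources used here, so reads of overlapping, antisense or near-identical genes cannot be told apart. From the table, 15 lines naming no gene were left out. A gene name table gave symbols for 29201 of 32520 identifiers.

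Genes were filtered with filterByExpr, which left 22012, scaled with TMM factors and tested with edgeR 4.0.16 (quasi-likelihood, robust, all 15 libraries, 1 coefficient per group) in R 4.3.3. Adjusted p-values are Benjamini-Hochberg over all genes tested, with a threshold of 0.05. A common dispersion of 0.134 was estimated (36.6% as a coefficient of variation). SE was taken from the log2 fold change and the F statistic. CPM use the TMM-scaled library total, with a prior count of 2 on the log2 scale. The test was first run on simulated data that held none of the marker differences between libraries seen here. That run therefore does not show how the test behaves on these libraries. Alternatives were other scalings and filters, DESeq2 1.42.0, voom in limma 3.58.1, fits on 2 groups, a replicate block, a digestive marker covariate and each library left out. Deviations of libraries with the same replicate number correlated between -0.54 and 0.54, not above 0.1 in every pair, so the numbers were not taken as pairs. Whether a number marks a shared clutch is not known. No libraries of a group were duplicates (chi-square per gene of 17.2 or higher).

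The genes, the role lists and the marker lists were chosen with earlier results of these data known. Per role list, the text gives by library the 2 genes with the smallest unadjusted p and the gene with the highest mean CPM (17 genes in all), and any gene of the further lists past the threshold. GRIA2, CAMK2A, SV2A, nefma, nefla and NEFL were added after their values were seen.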

Additional observations from a re-analysis of the deposited data

Results flagged for a closer look

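In 6 of 84 groups of 5 libraries, 1 library lay far from the other 4, with a gap above 0.71 of the range of the group. For independent groups, chance alone gives about 1 in 20. These groups share libraries and genes, and some were added after their values were seen, so that rate is only a rough guide. In 4 of the 6 groups the far library was Low 5, which was low. The mean log2 CPM of the vesicle genes was 6.347 in Low 5 and 6.767 to 6.923 in the other Low libraries, and that of the differentiation genes was 6.342 beside 6.527 to 6.595. CAMK2B (ENSDARG00000100089) was at 8.043 CPM in Low 5 beside 14.73 to 17.12, and GRIN1 (ENSDARG00000027828) at 245.0 CPM beside 401.8 to 452.1. In High, nrxn1b was at 1.403 CPM in High 1 beside 0.6545 to 0.8357, and CAMK2A at 53.6 CPM in High 3 beside 35.75 to 37.56.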

How the results depend on the processing

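Counts over all genes moved widely. For Low against Control (0 genes), DESeq2 called 65 and voom 1431. The fit without the 6 libraries rich in digestive markers (chosen after seeing the data) called 504, and it kept only High 1 and High 3 in High. Leaving out 1 library gave 0 to 507, the latter without Low 5. For High against Control (115), DESeq2 called 919, voom 275, a fit on 2 groups 51, the fit without the 6 libraries 0, and leaving out 1 library gave 19 (without Control 4) to 362 (without High 3). For High against Low (377), DESeq2 called 1648, voom 4656, a fit on 2 groups 118, the digestive covariate 58, the fit without the 6 libraries 233, and leaving out 1 library gave 39 (without Low 3) to 3778 (without Low 5). Of the 51 neuronal genes, voom called 9 in Low against Control, the fit without the 6 libraries 3, and leaving out 1 library 0 to 5. In High against Low, DESeq2 called 6, voom 24, and leaving out 1 library 0 to 19. In High against Control 0 were called in every setting, beside 0% (without the 6 libraries) to 4.36% (DESeq2) of all genes. The labels do not say whether libraries with the same replicate number were paired, and the numbers were not taken as pairs. With the replicate number as a block, 1, 20 and 106 genes passed in the 3 comparisons, and 0 of the 51. The block also ended the MAP1A and DLGAP2 calls for High against Low, as did fits on 2 groups, the covariate and the fit without the 6 libraries, with log2 fold changes there of -0.57 to -0.43 for MAP1A and -0.65 to -0.54 for DLGAP2, beside -0.52 and -0.63. DLGAP2 also missed the threshold with no low-count filter (edgeR adjusted p = 0.056).

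The signs of the class medians held in every setting for Low against Control (0.06 to 0.20 for differentiation, 0.16 to 0.34 for vesicle, 0.21 to 0.45 for synapse genes) and for High against Low (-0.23 to -0.02, -0.38 to -0.21 and -0.53 to -0.26). For High against Control all 3 medians took both signs (-0.10 to 0.09, -0.10 to 0.04 and -0.11 to 0.03). Over the 51 genes, 35 changed sign in at least 1 setting for High against Control (ELAVL3 and nefma in 13 of 25), 9 for High against Low and 8 for Low against Control, with log2 fold changes of up to 0.50, 0.25 and 0.18 in size. Values follow for the genes given by library under the naming rule. In Low against Control, nrxn1b gave 0.19 with voom, 0.079 with the covariate, 0.33 without the 6 libraries and -0.41 to 0.27 leaving out 1 library, and NEUROD1 -0.026 to 0.11. In High against Control, DLG4 (ENSDARG00000039385) gave -0.011 with upper quartile scaling, -0.0008 with no filter and -0.049 to 0.063 leaving out 1 library. With the covariate, SNAP25 (ENSDARG00000020609) gave 0.047, SNCG (ENSDARG00000109715) 0.10 and nrxn1a 0.012. Without the 6 libraries these gave 0.11, 0.036 and 0.066, and STMN1 (ENSDARG00000033655) 0.028, tubb5 -0.0029, CAMK2B (ENSDARG00000100089) 0.018 and GRIN1 (ENSDARG00000027828) 0.062. Leaving out 1 library gave SNAP25 -0.16 to 0.033, SNCG -0.10 to 0.053, nrxn1a -0.10 to 0.072, tubb5 -0.066 to 0.26 and NEUROD6 (ENSDARG00000040008) -0.032 to 0.14. The causes were not tested. Of the alternative log2 fold changes of these 17 genes with MAP1A and DLGAP2, 1324 values kept their direction and side of the threshold, 35 passed newly, 29 no longer passed and 37 changed sign. STX1A, syt1b and syn1 had too few counts to be tested.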
